A study of Mus musculus with 2 samples.

Results

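Cholesterol efflux and liver X receptor (LXR) target genes were examined in cells of the mouse aortic arch: Abca1, Abcg1, Apoe, Pltp, Nr1h3, Mylip, Lpcat3, Scarb1, Npc2 and Soat1. The members were chosen by symbol, and all 10 of the 10 were found among the 31053 genes counted. Counts came from 1 library per diet, named ND (normal diet, the control) and HFD (high-fat, high-cholesterol diet). Each library pooled the aortas of 2 male C57BL/6 mice of 16 weeks of age, taken through a lung dissociation kit. All mice of both groups were Apoe-/-, so no group with an intact Apoe gene was measured, and the comparison is of diets within an atherosclerosis-prone genotype. Because both diets had 1 library, no difference between diets was tested, and intervals cover counting error only, not the variation between mice.

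LXRs are nuclear receptors that are activated by oxysterols, the oxidised derivatives of cholesterol, and act together with retinoid X receptors. When sterol accumulates in a cell, they raise genes that export cholesterol to lipoproteins, remodel membrane phospholipid and limit the uptake of further lipoprotein. In the artery wall this programme is known best from macrophages that take up modified lipoprotein and become foam cells. LXR alpha (Nr1h3) is the receptor among the 10 genes, Abca1 and Abcg1 are the transporters, Apoe and Pltp act on lipoprotein particles, and Mylip and Lpcat3 are further LXR targets. Scarb1, Npc2 and Soat1 handle cholesterol at the cell surface, in the lysosome and at the endoplasmic reticulum.

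With the filter given in the study's methods (at least 200 genes, at least 200 unique molecular identifiers or UMIs, at most 30% mitochondrial UMIs), 5416 of 10234 ND barcodes and 2739 of 14225 HFD barcodes were kept. These are the cell numbers given in the labels. The libraries differed in quality, with 52.9% of barcodes kept in ND and 19.3% in HFD, a median of 3732.5 and 5336 UMIs per kept cell, and a median mitochondrial share of 16.8% and 21.9%. They shared 39 barcodes, of which 1 was kept in both. Cells were put in classes by UMIs of fixed marker genes, with at least 2 markers and 3 marker UMIs, and 2291 ND and 1166 HFD cells passed as endothelial, 370 and 535 as macrophage, 1025 and 451 as fibroblast, and 54 and 23 as mural (smooth muscle or pericyte). The 5 macrophage markers summed to 12863 and 11042 UMIs per 1000000 UMIs (CPM) in the macrophage class, against 82.8 and 89.5 CPM in endothelial cells and 105 and 96.5 CPM in fibroblasts. Macrophages made up 6.83% (exact 95% interval 6.17 to 7.54) of kept ND cells and 19.5% (18.1 to 21.1) of kept HFD cells. The tissue was not alike either, as 69 ND cells and 0 HFD cells passed as club cells, a type of the airway. Club markers summed to 63.6 CPM in ND and 0.275 CPM in HFD endothelial cells. The part of this tissue in the ratios between diets was not tested.

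The promoter of Abca1 is shown because LXRs bind a direct repeat of the hexamer AGGTCA with a spacer of 4 bases (DR4), and because Abca1 is the transporter with the most UMIs in macrophages here. The 250 bases before the start of Abca1 (RefSeq, GRCm38.p6, chr4:53159896-53160145, minus strand) are given 5′ to 3′, with the best match to the repeat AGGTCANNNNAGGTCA on either strand in capitals.
Abca1 promoter: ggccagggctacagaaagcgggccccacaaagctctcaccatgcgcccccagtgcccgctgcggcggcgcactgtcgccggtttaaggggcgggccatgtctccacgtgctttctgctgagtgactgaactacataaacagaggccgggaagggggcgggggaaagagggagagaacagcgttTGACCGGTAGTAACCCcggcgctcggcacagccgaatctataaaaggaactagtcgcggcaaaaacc
Turned to the strand of the repeat, the best 16 bases of Abca1 and of Soat1 and Lpcat3, which were also higher in HFD macrophages, read as follows, with capitals at the bases that match the repeat.
Abca1: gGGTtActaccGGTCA
Soat1: AGGaCcaccaAtGgCA
Lpcat3: AGGTaggaagAGGgCg
The Abca1 match lay 67 to 52 bases before the start and had 3 mismatches over the 12 fixed bases, and those of Soat1 and Lpcat3 had 4. Promoters of Apoe and Nr1h3, which were not at least 1.5-fold higher in HFD macrophages, held best matches with 4 mismatches as well. The share of all promoters with such a match was not counted. The RefSeq table held 11 promoters for 8 of the 10 genes. A match with at most 3 mismatches was found in 1 of these 11 and in 18.5% of all 32851 promoters, and at most 2 mismatches in 0 of 11 and in 2.57% of all, so such a match was not particular to these genes. No entry was used for Abcg1 or Scarb1.

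Of the 10 genes, Abca1, Abcg1, Pltp and Npc2 were highest in macrophages and Apoe, Mylip and Scarb1 in endothelial cells in both libraries, and the other genes had no such leading class. Levels are given as CPM, the UMIs of a gene scaled to all UMIs of the same cells, in classes with at least 20 cells (11 in ND, 7 in HFD). Nr1h3 (chr2:91184061-91202834, minus strand, GRCm38) stood at 32.6 CPM (exact 95% Poisson interval 24.9 to 41.9) in ND macrophages and 48.4 (41.7 to 55.9) in HFD macrophages. Its highest levels were in adipocytes in ND, at 61.0 CPM, and in mural cells in HFD, at 92.4, from 35 and 10 UMIs. The intervals of those classes overlapped their next neighbours, so the receptor had no single leading class beyond counting error. A gene model, Gm13783, lies on the same strand within the span of Nr1h3, and reads of the pair may be split between them.

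Abca1 (chr4:53030787-53159895, minus strand) moves cholesterol and phospholipid to lipid-poor apolipoprotein A-I. It was highest in macrophages, at 421 CPM (392 to 452) in ND and 648 (623 to 674) in HFD. The next class was adipocytes in ND, at 188 CPM, and fibroblasts in HFD, at 269, so macrophages led 2.24-fold and 2.41-fold with no overlap of intervals. Endothelial cells held 176 CPM (168 to 184) and 142 (133 to 150.5), and fibroblasts 151 (140.0 to 164) and 269 (247 to 292). T cells, which served as a low reference, had 5.28 and 11.3 CPM.

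Abcg1 (chr17:31057675-31117988, plus strand) is the transporter that passes cholesterol to mature HDL. Macrophages held 101 CPM (87.0 to 117) in ND and 315 (298 to 333) in HFD. Monocytes came next in both libraries, at 74.4 CPM (40.7 to 125) and 189.9 (124 to 278), and their interval overlapped that of macrophages in ND only. Macrophages did not lead for Abcg1 in ND after thinning, at 95.1 CPM against 121 in adipocytes, or by the mean of cells, at 81.7 against 91.4. Fibroblasts, at 6.37 and 10.8 CPM, were the lowest class in HFD and next to lowest in ND, so Abca1 was well counted in fibroblasts and Abcg1 hardly so.

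Pltp (chr2:164839518-164857711, minus strand) encodes the phospholipid transfer protein of lipoproteins. It was the gene set most apart in macrophages, at 1214 CPM (1164 to 1265) in ND and 1548 (1509 to 1588) in HFD, 8.40-fold and 4.93-fold above the next class. That class was endothelial in ND, at 144 CPM, and monocyte in HFD, at 314. Pltp overlaps Ctsa, a cathepsin gene on the other strand, and the sources used here do not give whether counting used strand.

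Apoe (chr7:19696109-19699188, minus strand) encodes apolipoprotein E, the ligand that clears remnant lipoproteins, and is disrupted in these mice. Even so 1257 Apoe UMIs were counted in kept ND cells and 844 in kept HFD cells. Which stretch was deleted could not be read from the labels or methods, so the UMIs do not test the genotype, and they count transcript rather than protein. Endothelial cells had the highest level, at 82.1 CPM (76.9 to 87.6) in ND and 72.7 (66.6 to 79.2) in HFD, 2.19-fold and 2.26-fold above macrophages at 37.4 and 32.2. T cells held 3.96 and 11.3 CPM.

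Mylip (chr13:45389742-45412022, plus strand) encodes the ubiquitin ligase IDOL, which limits lipoprotein uptake. It too was highest in endothelial cells, at 379.8 CPM (369 to 391) in ND and 449 (434 to 465) in HFD, followed by macrophages at 171 and 169. Lpcat3 (chr6:124663027-124704418, plus strand) builds polyunsaturated chains into membrane phospholipid. Its ND levels led in adipocytes at 76.7 CPM and its HFD levels in endothelial cells at 47.5, and both leaders overlapped the next class. Lpcat3 overlaps Emg1 on the other strand.

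Scarb1 (chr5:125277087-125341094, minus strand) encodes SR-BI, the receptor through which cells exchange cholesterol with HDL. Endothelial cells held 307 CPM (297 to 317) in ND and 165 (156 to 175) in HFD, 2.62-fold and 3.23-fold above monocytes at 117 and 51.1. Macrophages were low, at 17.9 and 23.8 CPM. Scarb1 shares its strand with a gene model, Gm42633, within its span.

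Npc2 (chr12:84754562-84773152, minus strand) binds cholesterol in the lysosome and hands it on to Npc1. Its level was 829 CPM (788 to 872) in ND macrophages, where adipocytes (793) and monocytes (787) overlapped it, and 1173 (1139 to 1208) in HFD macrophages, above monocytes at 935. In ND they did not lead for Npc2 after thinning, at 712 CPM against 969.7 in adipocytes, or by the mean of cells, at 749 against 803 in monocytes. Soat1 (chr1:156424525-156474331, minus strand) makes the cholesteryl esters stored in lipid droplets. It reached 72.2 CPM (60.4 to 85.5) in ND and 173 (160.4 to 187) in HFD macrophages, and in both libraries the interval overlapped that of monocytes, at 85.0 and 102. In endothelial cells Soat1 stood at 11.3 and 13.2 CPM.

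**Figure D1:**
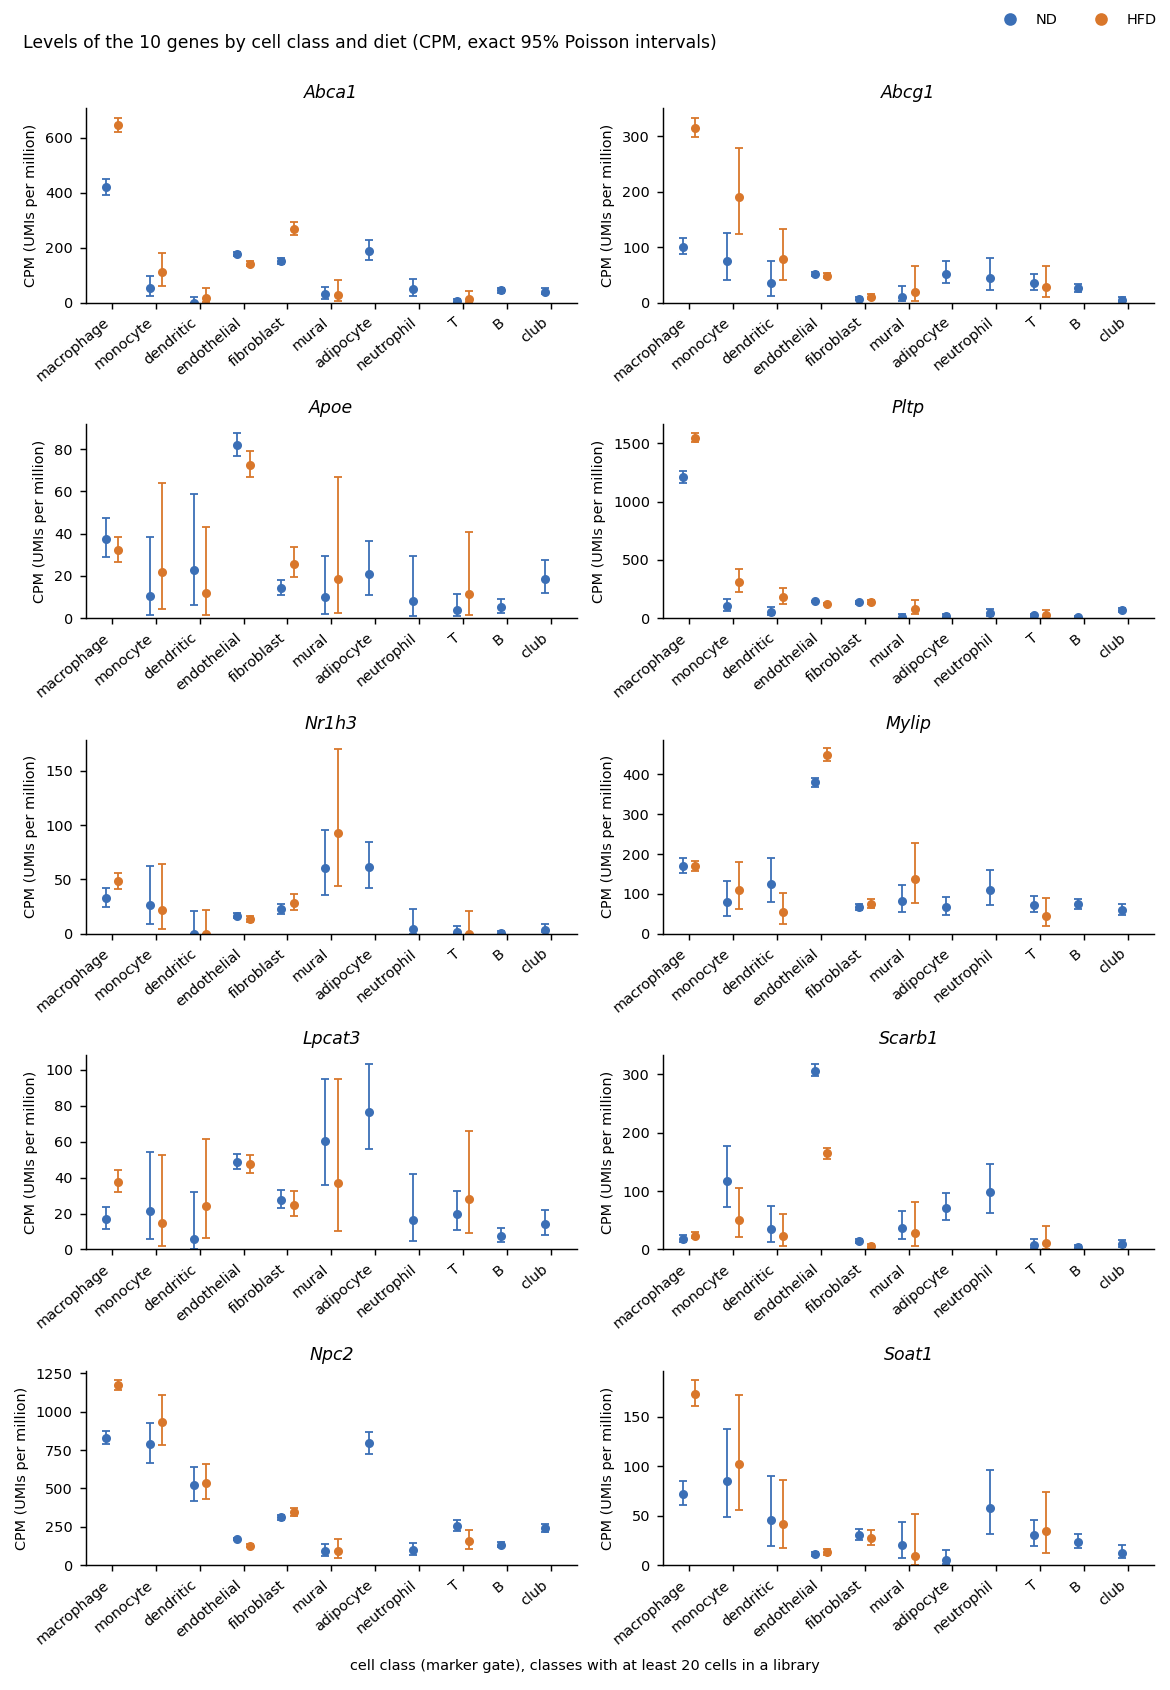
CPM of the 10 genes in each cell class with at least 20 cells, ND in blue and HFD in orange, with exact 95% Poisson intervals. Abca1 and Pltp stand highest in macrophages, and Apoe, Mylip and Scarb1 in endothelial cells, in both libraries; Abcg1 in ND macrophages did not lead after thinning (95.1 CPM, adipocytes 121).

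Shares of cells gave the same picture for the transporters. An Abca1 UMI was found in 69.7% (exact Clopper-Pearson interval 64.8 to 74.4) of ND and 86.2% (83.0 to 89.0) of HFD macrophages, and an Abcg1 UMI in 25.4% (21.0 to 30.2) and 65.8% (61.6 to 69.8). Since HFD macrophages were deeper, with a median of 5993 UMIs against 4424, cells were thinned to 1000 UMIs, which left 33.2% and 45.2% with Abca1 and 9.24% and 21.5% with Abcg1. In ND T cells, with a median of 2541 UMIs, the share with a UMI was 1.17% for Abca1 and 8.98% for Abcg1, or 0.781% and 3.12% after thinning. The HFD library had 27 T cells, with a median of 5428 UMIs and shares of 3.70% and 14.8%. The shares of both genes in macrophages were above these reference shares in both libraries. Scarb1 was found in 59.5% of ND and 47.2% of HFD endothelial cells, or 25.0% and 12.0% after thinning, against 1.95% and 7.41% of T cells, although the HFD endothelial cells were deeper, with medians of 5366 and 3577 UMIs.

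In macrophages, 4 of the 10 genes were at least 1.5-fold higher in HFD and 0 were at least 1.5-fold lower, counting genes whose UMIs summed to 50 or more over the pair of libraries. Over all 7602 genes so filtered, 10.1% were at least 1.5-fold higher and 15.8% at least 1.5-fold lower. Endothelial markers in these cells summed to 82.5 CPM (69.9 to 96.7) in ND and 134 (122 to 146) in HFD, with 5 of 5 counted in each, and fibroblast markers to 104 and 62.2, with 6 of 6, and their part in the ratios was not tested. The median log2 ratio of HFD to ND was 0.54 for the 10 genes and -0.09 for all genes. Over genes with at least 10 UMIs in each library the median was -0.13 in macrophages, -0.15 in endothelial cells and -0.14 in fibroblasts, and ratios lie higher by that much when read against it.

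The 4 genes were both transporters, the ester-forming enzyme and the phospholipid enzyme. Abcg1 had the largest ratio, with 101 CPM in ND and 315 in HFD, a log2 ratio of 1.64 (exact conditional binomial interval 1.42 to 1.87), above those of 98.7% of genes. Soat1 went from 72.2 to 173 CPM, a log2 ratio of 1.26 (0.99 to 1.54). Lpcat3 stood at 16.8 and 37.7 CPM, from 31 and 144 UMIs, with a ratio of 1.16 (0.59 to 1.77). Abca1, already well counted in ND, was 1.54-fold higher, at 421 against 648 CPM and a log2 ratio of 0.62 (0.50 to 0.74). Export and storage genes were thus both higher in the same HFD library.

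The other genes differed less. Nr1h3, at 32.6 and 48.4 CPM, was 1.49-fold higher with a log2 ratio of 0.57 (0.14 to 1.02), just short of the size counted. Npc2 had a ratio of 0.50 (0.42 to 0.58) and Pltp of 0.35 (0.28 to 0.42). The intervals of Scarb1 (0.41, -0.18 to 1.03), Mylip (-0.01, -0.21 to 0.19) and Apoe (-0.22, -0.66 to 0.23) held 0, so no difference was detectable at this depth. When ratios were set by the median of ratios, Nr1h3 and Npc2 also passed 1.5-fold, and when every cell was thinned to 1000 UMIs only 6 genes kept 50 UMIs and 2 of them, Abcg1 and Soat1, passed.

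**Figure D2:**
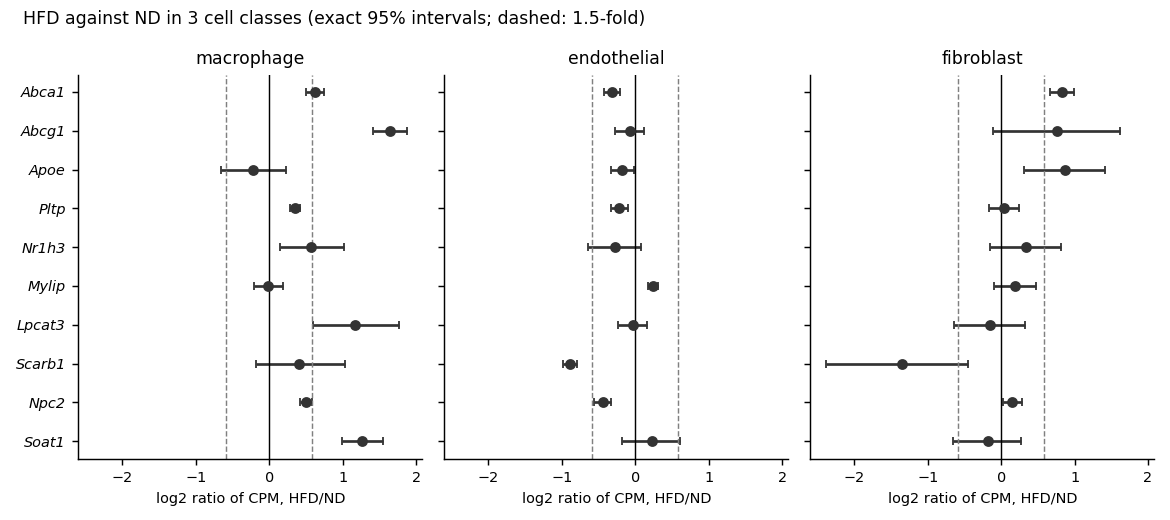
Log2 ratio of CPM, HFD to ND, of the 10 genes in macrophages, endothelial cells and fibroblasts, with exact 95% intervals and dashed lines at 1.5-fold. Abcg1 is the farthest to the right in macrophages (1.64), Scarb1 the farthest to the left in endothelial cells (-0.89) and in fibroblasts (-1.36).

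The kinds of macrophage differed between the diets. Foam-type cells, with at least 2 of the markers Trem2, Gpnmb, Spp1, Fabp5, Mmp12 and Atp6v0d2 and fewer than 2 resident markers, were 20 of 370 ND macrophages, or 5.41% (3.33 to 8.23), and 182 of 535 HFD macrophages, or 34.0% (30.0 to 38.2). Resident-type cells, with at least 2 of Lyve1, Folr2, F13a1, Cbr2, Gas6 and Timd4, were 65.4% (60.3 to 70.2) and 38.3% (34.2 to 42.6). A further 30 and 80 cells passed both lists, and 78 and 68 passed neither.

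In the HFD library, 4 of the 10 genes were at least 1.5-fold higher in foam-type than in resident-type cells and 2 were at least 1.5-fold lower, against 19.2% and 21.4% of 5484 genes. Nr1h3 differed most, with 13.5 CPM (7.54 to 22.2) in resident and 78.7 (66.1 to 93.1) in foam type, a log2 ratio of 2.55 (1.77 to 3.42), although after thinning it was 24.4 and 49.5 CPM. Abcg1 stood at 128 CPM (108 to 151) and 474 (442 to 507), a log2 ratio of 1.88 (1.62 to 2.15). Soat1 had 83.5 and 262 CPM (1.65, 1.33 to 1.99) and Npc2 786 and 1505 (0.94, 0.83 to 1.05). The summed levels of the receptor, the HDL transporter, the esterifying enzyme and the lysosomal carrier were thus all higher in the foam type. For the receptor the thinned shares of cells overlapped, at 2.44% (0.797 to 5.60) in resident and 4.95% (2.29 to 9.18) in foam type. Mylip was lower in foam-type cells, at 148 against 237 CPM (-0.68, -0.93 to -0.42), and Apoe also, at 25.9 against 46.7 (-0.85, -1.46 to -0.25).

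Abca1 and Pltp set the kinds apart less in HFD. Abca1 stood at 616 CPM (571 to 664) in resident and 765 (724 to 807) in foam type, a log2 ratio of 0.31 (0.18 to 0.45), and Pltp at 1767 and 1497 (-0.24, -0.32 to -0.15). In ND, where the foam type held 20 cells, Pltp was 1524 CPM (1452 to 1598) in resident and 635 (504 to 791) in foam type, a log2 ratio of -1.26 (-1.60 to -0.94). Abcg1 in ND was 56.3 (43.3 to 72.1) and 286 (200.2 to 396), or 2.34 (1.71 to 2.96), the same direction as in HFD.

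Within resident-type cells, 2 of the 9 measured genes were at least 1.5-fold higher in HFD and 1 was at least 1.5-fold lower, against 4.75% and 10.7% of 4888 genes. Abcg1 was 56.3 CPM in ND and 128 in HFD (1.19, 0.75 to 1.64), and Lpcat3 18.8 and 35.9 (0.94, 0.14 to 1.77). Abca1 was 490.1 and 616 (0.33, 0.17 to 0.49), Soat1 57.2 and 83.5 (0.55, 0.07 to 1.03) and Mylip 185 and 237 (0.36, 0.09 to 0.63). Summed Nr1h3 was lower, at 38.5 CPM (27.8 to 51.8) in ND and 13.5 (7.54 to 22.2) in HFD, a log2 ratio of -1.51 (-2.47 to -0.64), from 43 and 15 UMIs. The 43 ND UMIs lay in 21 cells, and the share of cells with a UMI was 8.68% in ND and 6.83% in HFD, with overlapping intervals. The summed difference thus rested on few cells, and the mean over cells was 24.5 and 14.8 CPM, in the same direction. After thinning the level was 16.7 and 24.4 CPM, from 1.67% (0.456 to 4.21) and 2.44% (0.797 to 5.60) of cells. These intervals overlapped, so no direction was resolved at equal depth.

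The foam type was not alike in the libraries, with 548 and 3350 CPM of Gpnmb, 1517 and 6284 of Fabp5, 413 and 1036 of Trem2 and 8497 and 4225 of Spp1 in ND and HFD, and the part of this in the ratios within it was not tested. In foam-type cells Pltp had the largest ratio of those with 4 or more UMIs in each library, at 635 and 1497 CPM (1.24, 0.92 to 1.58). Soat1 was 143 and 262 CPM (0.87, 0.20 to 1.64), Abcg1 286 and 474 (0.73, 0.25 to 1.25) and Npc2 937 and 1505 (0.68, 0.42 to 0.96). Abca1, at 635 and 765, had an interval that held 0 (0.27, -0.06 to 0.61). With the 4 kinds given equal weight in each library, the ratio over macrophages was 0.72 for Abcg1 in place of 1.64, 0.57 for Soat1 in place of 1.26, 0.43 for Abca1 in place of 0.62 and 0.19 for Npc2 in place of 0.50, while Lpcat3 (1.34) and Pltp (0.65) were not smaller. The ratios of Abcg1, Soat1, Abca1 and Npc2 were thus smaller with the kinds at equal weight, in the same direction. The ND side of the Lpcat3 value rested on few UMIs. They were 1 in the foam type, 5 in cells passing both lists, 21 in the resident type and 4 in cells passing neither.

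**Figure D3:**
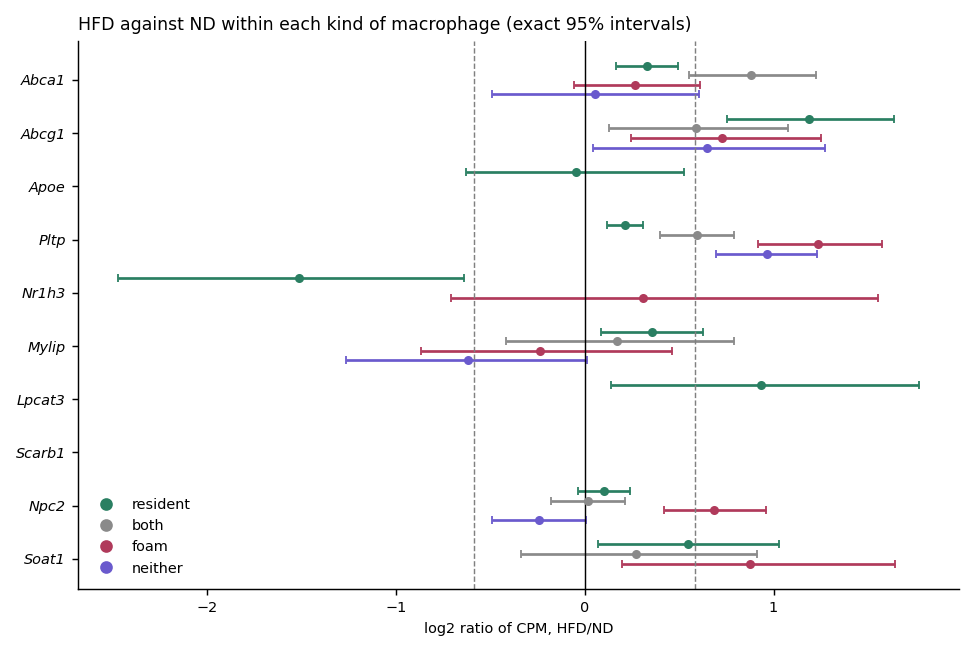
Log2 ratio of CPM, HFD to ND, within macrophages of the resident type, the foam type, those passing both lists and those passing neither, with exact 95% intervals; genes with at least 50 UMIs over both libraries and 4 in each are drawn. All 4 kinds lie to the right of 0 for Abcg1, and Nr1h3 of the resident type lies farthest to the left (-1.51), from 43 and 15 UMIs. After thinning its levels were 16.7 and 24.4 CPM, with overlapping intervals of the shares of cells.

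Levels were also read along the number of the 6 foam markers with a UMI, which does not use the resident list. In HFD, Abcg1 was 133, 143, 207, 372 and 496 CPM at 0, 1, 2, 3 and at least 4 markers, in 123, 150, 70, 37 and 155 cells. Soat1 was 75.9, 84.3, 90.9, 135 and 286 CPM and Npc2 741, 775, 939, 1096 and 1623. These summed levels were higher at each further marker. After thinning to 1000 UMIs all 3 genes read lower at 2 markers than at 1, for instance 120.0 and 71.4 CPM for Soat1. Npc2 read 853 and 757 CPM, and the thinned shares of cells had overlapping intervals for all 3 genes. The mean over cells was higher at 2 markers than at 1 for each of them. It was 154 and 240 CPM for Abcg1, 89.6 and 96.9 for Soat1 and 777 and 939 for Npc2. Nr1h3 stayed between 14.2 and 18.2 CPM up to 3 markers and was 90.8 (76.8 to 107) at 4 or more. Abca1 went from 459.9 CPM (409 to 516) at 0 to 834 (790.3 to 879) at 4 or more, and Mylip from 186.5 (154 to 223) to 144 (126 to 163).

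In ND Abca1 was 439, 374, 302 and 247 CPM at 0, 1, 2 and 3 markers, in 195, 125, 36 and 8 cells. The intervals of neighbouring bins overlapped, and that of 3 markers (131 to 422), from 13 UMIs, also overlapped that of 0 (395 to 485). After thinning the levels were 497, 360, 389 and 250 CPM. The thinned shares of cells had overlapping intervals, so no order was resolved at equal depth. Only 6 ND cells had at least 4 markers, and in these Abca1 stood at 922 CPM (743 to 1131), Soat1 at 281 (187 to 406) and Npc2 at 1844 (1587 to 2131), each overlapping the HFD interval at the same number of markers, whereas Abcg1, at 311 (211 to 441), lay below the HFD interval of 463 to 532. Abcg1 with 0 markers was 65.5 CPM (49.5 to 85.1) in ND and 133 (106 to 164) in HFD, so this gene differed between the diets also where no foam marker was counted. Nr1h3 with 0 markers was 40.9 CPM (28.5 to 56.9) in ND and 14.2 (6.50 to 27.0) in HFD, the opposite direction. Cells with more markers were deeper, with a median of 5025 UMIs at 0 and 9376 at 4 or more in HFD, and the part of depth in the marker number was not tested. After thinning to 1000 UMIs, with the bins kept, the share of HFD cells with Abcg1 was 12.2% at 0 and 39.4% at 4 or more markers.

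**Figure D4:**
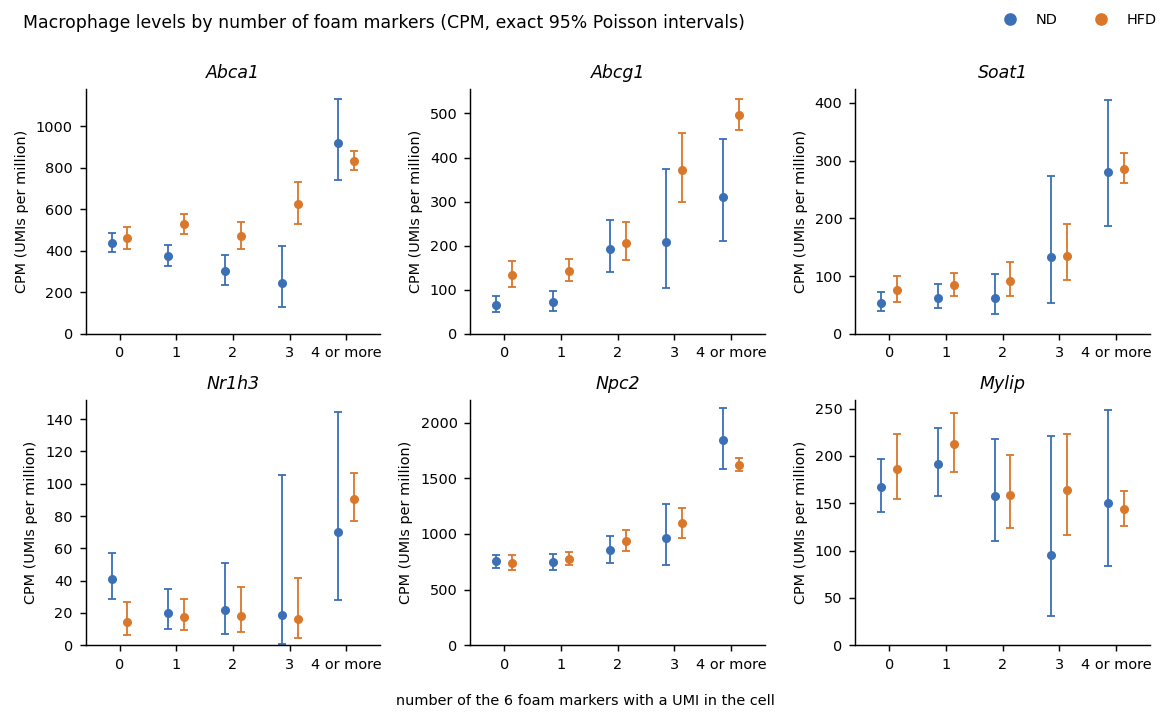
CPM of 6 genes in macrophages by the number of the 6 foam markers with a UMI, ND in blue and HFD in orange, with exact 95% Poisson intervals. Abcg1, Soat1 and Npc2 are highest at 4 or more markers. Nr1h3 in HFD lies between 14.2 and 18.2 CPM up to 3 markers and at 90.8 CPM at 4 or more. After thinning its HFD levels were 8.13, 40.0, 14.3, 0 and 58.1 CPM.

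In endothelial cells neither transporter was higher in HFD, and the HDL receptor Scarb1 was lower. Of the 10 genes, 0 were at least 1.5-fold higher in HFD and 1, Scarb1, was at least 1.5-fold lower, against 4.71% and 15.5% of 10722 genes. The median log2 ratio was -0.20 for the 10 genes and -0.16 for all genes. Scarb1 had 307 CPM in ND and 165 in HFD, a log2 ratio of -0.89 (-0.99 to -0.80), with 6.70% of genes below it. Npc2 was 172 and 127 (-0.44, -0.55 to -0.33) and Abca1 176 and 142 (-0.31, -0.42 to -0.20). Pltp and Apoe were lower by less, with ratios of -0.21 and -0.18. Mylip alone of the 10 had an interval above 0, at 379.8 and 449 CPM (0.24, 0.18 to 0.31). Abcg1, Lpcat3, Nr1h3 and Soat1 had intervals that held 0.

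Kinds of endothelial cell were set by their own markers: capillary (Gpihbp1, Cd36, Rbp7, Aqp1), luminal (Cytl1, Vcam1, Vwf, Bmp4), arteriolar (Stc1, Hey1, Sema3g, Gja5) and lymphatic. Capillary cells numbered 1674 in ND and 776 in HFD and luminal cells 137 and 46, while all cells with arteriolar markers also passed another list. These kinds were not alike in the libraries. Capillary cells held 5036 and 2973 CPM of Aqp1, 609 and 1051 of Rbp7, 3966 and 5534 of Cd36 and 2580 and 2337 of Gpihbp1. Luminal cells held 119 and 1084 CPM of Aqp1 and 5887 and 4023 of Cytl1. The part of this in the ratios within kinds was not tested. In ND, 5 of the 10 genes were at least 1.5-fold higher in capillary than in luminal cells and 2 were at least 1.5-fold lower, against 25.5% and 26.2% of 8936 genes. In HFD the numbers were 4 and 4, against 25.9% and 30.3% of 7131 genes. Among the 4 higher, Nr1h3 had 0 UMIs in luminal HFD cells, where its exact interval reached 10.7 CPM.

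Scarb1 separated the kinds most. In ND it stood at 356 CPM (342 to 370.2) in capillary and 13.9 (7.43 to 23.8) in luminal cells, a log2 ratio of 4.67 (3.90 to 5.58), and in HFD at 182 (169 to 195) and 20.2 (8.13 to 41.7), or 3.17 (2.12 to 4.49). The lower HFD level was found in both large kinds where the gene was high, with -0.97 (-1.09 to -0.85) in capillary cells and -1.05 (-1.23 to -0.87) in cells with arteriolar and capillary markers, at 390.1 and 189 CPM. In the 47 and 32 cells with luminal and capillary markers it was 197 and 220.4 CPM, with an interval that held 0 (0.16, -0.41 to 0.74). In luminal cells only 13 and 7 UMIs were counted, too few for a ratio. Mylip followed the same division without a lower level in HFD, at 458 and 480.1 CPM in capillary and 92.3 and 116 in luminal cells.

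Abca1 was lower in HFD in capillary cells, while in luminal cells its summed level was higher and its order after thinning was not resolved. In capillary cells it was 164 CPM (154 to 174) in ND and 107 (97.4 to 117) in HFD, a log2 ratio of -0.61 (-0.77 to -0.46). In luminal cells it was 171 CPM (145 to 199) and 269 (217 to 329), a log2 ratio of 0.66 (0.27 to 1.03). The mean over luminal cells was 185 and 214 CPM, and a UMI was found in 65.0% and 67.4% of them. After thinning to 1000 UMIs the luminal level was 231 CPM in ND and 152 in HFD, against 164 and 120 in capillary cells. The thinned luminal levels came from 22.4% (15.6 to 30.4) and 15.2% (6.34 to 28.9) of cells. These intervals overlapped, so no direction was resolved at equal depth. Summed Lpcat3 in luminal cells was 42.9 and 95.4 CPM (1.15, 0.44 to 1.85), from 40 and 33 UMIs. In capillary cells it was 51.1 and 44.7 (-0.19, -0.46 to 0.06). After thinning Lpcat3 was found in 2.99% (0.819 to 7.47) of ND and 6.52% (1.37 to 17.9) of HFD luminal cells. These intervals overlapped, so its luminal direction was not resolved at equal depth. In cells with luminal and capillary markers summed Abca1 was 186 CPM in ND and 273 in HFD. After thinning it was 149 and 250 CPM, from 14.9% (6.20 to 28.3) and 18.8% (7.21 to 36.4) of these cells. Those intervals overlapped, so no direction was resolved there at equal depth either. Luminal cells carried more fibroblast RNA in HFD, with the 6 fibroblast markers summing to 327 CPM (6 of 6 with a UMI) in ND and 876 (5 of 6, Col1a1 at 0) in HFD, and the part of this RNA in the Abca1 and Lpcat3 levels was not tested. The 5 macrophage markers summed to 68.7 and 57.8 CPM in the same cells, no higher in HFD.

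Soat1 and Npc2 were higher on the luminal side in both libraries. Npc2 stood at 289 CPM (255 to 325) in luminal and 149 (140.4 to 159) in capillary cells in ND, and at 251 (201 to 310.2) and 106 (96.5 to 116) in HFD. Soat1 was 21.5 against 7.35 CPM in ND and 43.4 against 10.8 in HFD. Lymphatic cells were few, 37 and 18, and held 301 and 172 CPM of Abca1 and 169 and 46.8 CPM of Apoe, the latter from 46 and 6 UMIs. The lymphatic marker Ccl21a stood at 8788 and 3096 CPM in them and Mmrn1 at 2107 and 593, while the capillary marker Cd36 stood at 1564 and 3167, so the cells of the libraries were not alike, and the part of this in their levels was not tested.

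**Figure D5:**
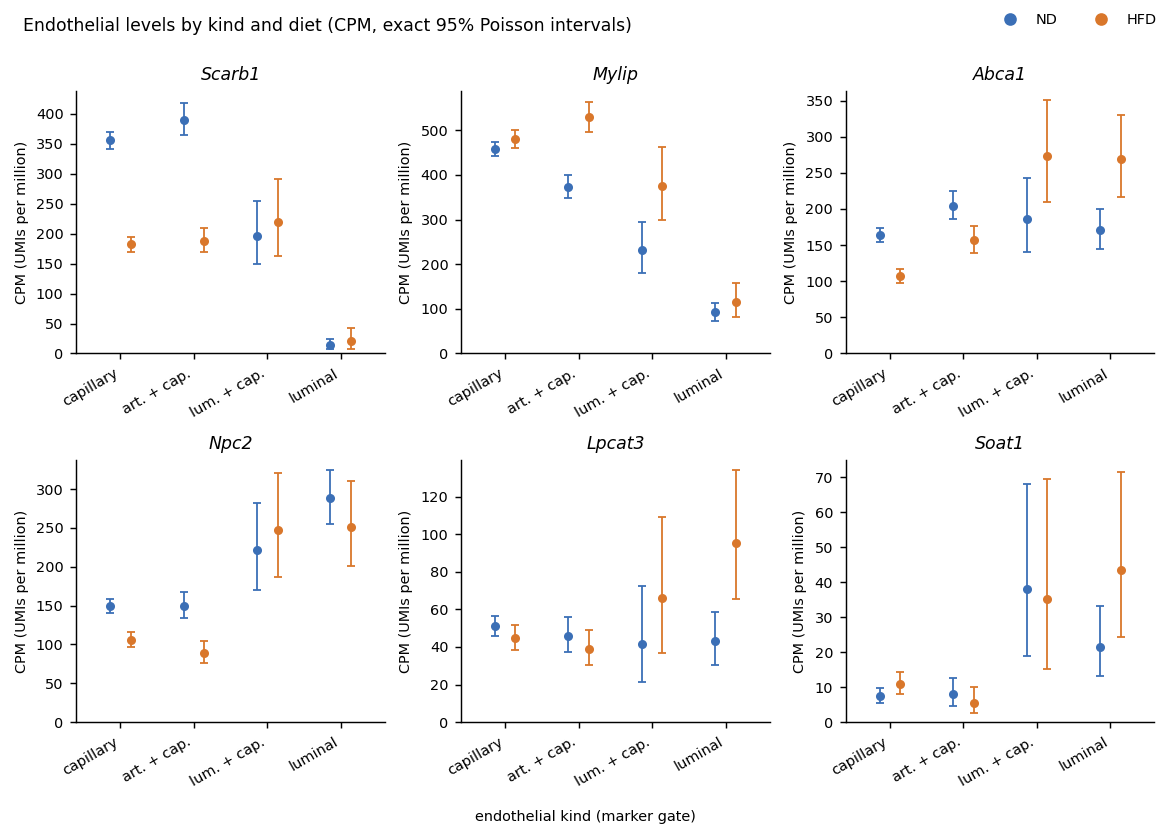
CPM of 6 genes in endothelial cells with capillary, arteriolar and capillary (art. + cap.), luminal and capillary (lum. + cap.) or luminal markers, ND in blue and HFD in orange, with exact 95% Poisson intervals. Scarb1 and Mylip are lowest in luminal cells, and Abca1 is lower in HFD in capillary cells (107 against 164 CPM). Its higher HFD level in luminal cells (269 against 171 CPM) was not resolved after thinning (152 against 231 CPM). The thinned shares of cells had overlapping intervals.

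In fibroblasts Abca1 was the well-counted gene that was higher in HFD. At least 1.5-fold higher in HFD were 3 of the 10 genes and lower 1, against 4.49% and 14.4% of 9166 genes, and the median log2 ratio was 0.17 for the 10 and -0.16 for all genes. Abca1 was 151 CPM (140.0 to 164) in ND and 269 (247 to 292) in HFD, a log2 ratio of 0.83 (0.66 to 0.99), above those of 98.0% of genes, and a UMI of it was found in 39.7% and 66.5% of cells, or 12.6% and 23.7% after thinning. The others rested on few UMIs: Apoe 14.2 and 25.8 CPM from 60 and 55 UMIs (0.86, 0.31 to 1.42), Abcg1 6.37 and 10.8 from 27 and 23 UMIs (0.76, -0.11 to 1.62), and Scarb1 14.4 and 5.62 from 61 and 12 UMIs (-1.36, -2.38 to -0.45). Soat1, Lpcat3, Pltp, Mylip and Nr1h3 had intervals that held 0, and Npc2 had 310.4 and 345 CPM (0.15, 0.02 to 0.29).

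The Abca1 ratio was alike in fibroblasts with a UMI of Pi16, an adventitial marker counted in 76.0% of ND and 76.3% of HFD fibroblasts. It was 167 and 292 CPM (0.81, 0.63 to 0.99) with Pi16 and 103 and 188 CPM (0.87, 0.44 to 1.29) without. Macrophage markers in fibroblasts summed to 105 CPM (95.9 to 116) in ND and 96.5 (83.8 to 111) in HFD, with 5 of 5 counted in each, no higher in HFD. The monocyte markers summed to 179 and 391 CPM and the mural markers to 147 and 294, and their part in the ratio was not tested. At a limit of 10% mitochondrial UMIs, which left 161 ND and 10 HFD fibroblasts, the Abca1 ratio was -0.027.

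Mural cells held few UMIs of any member, and 0 of the 10 genes reached 50 over both libraries. Their levels in ND and HFD were 83.6 and 139 CPM for Mylip, 60.2 and 92.4 for Nr1h3, 93.6 and 92.4 for Npc2 and 30.1 and 27.7 for Abca1, and these intervals overlapped between the libraries. The interval of Nr1h3, from 18 and 10 UMIs, also overlapped that of macrophages. Pltp stood at 13.4 CPM (3.64 to 34.2) and 83.2 (38.0 to 158), from 4 and 9 UMIs. Macrophage markers in mural cells summed to 43.5 CPM in ND, with 2 of 5 counted (C1qa, C1qc and Adgre1 at 0), and to 268 in HFD, with 5 of 5, and their part in the Pltp level was not tested.

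The wider pathway was followed in a list of 34 further genes of LXR partners, LXR targets, ester and lysosomal handling, oxysterol synthesis and lipoprotein uptake. In macrophages 30 of them had enough UMIs, of which 10 were at least 1.5-fold higher in HFD and 6 at least 1.5-fold lower, with a median log2 ratio of 0.22, beside the 10.1% and 15.8% of all genes given above. The partner receptors were level: Nr1h2 (LXR beta) stood at 50.5 and 51.5 CPM (0.03, -0.33 to 0.40) and Rxra at 33.1 and 35.0 (0.08, -0.37 to 0.54). The largest ratios were those of Apoc1, an apolipoprotein gene beside Apoe, at 15.7 and 129.9 CPM (3.05, 2.51 to 3.64), Cd5l, a secreted macrophage protein, at 137 and 867 (2.66, 2.48 to 2.86), and Nceh1, which hydrolyses cholesteryl ester, at 45.6 and 127 (1.48, 1.15 to 1.83).

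Lipa and Npc1 act with Npc2 in the lysosome. Lipa, the lysosomal acid lipase, stood at 157 and 353 CPM (1.17, 0.98 to 1.36) and Npc1, which takes cholesterol from Npc2, at 58.6 and 94.4 (0.69, 0.37 to 1.01). Both enzymes of oxysterol synthesis on the list were lower: Ch25h, cholesterol 25-hydroxylase, at 33.7 and 6.01 CPM (-2.48, -3.24 to -1.77), and Cyp27a1, sterol 27-hydroxylase, at 58.6 and 25.4 (-1.21, -1.62 to -0.80). Genes of the list thus did not differ in 1 direction, and Stard3, a cholesterol carrier of late endosomes, had an interval that held 0, at 33.7 and 37.9 CPM (0.17, -0.27 to 0.63).

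In HFD foam-type against resident-type cells, 26 of the 34 had enough UMIs, 12 were at least 1.5-fold higher and 3 lower, beside 19.2% and 21.4% of all genes. Cd5l stood at 6.29 and 1324 CPM (7.72, 6.67 to 9.03), Apoc1 at 15.3 and 141 (3.21, 2.50 to 4.01), Lipa at 99.7 and 563 (2.50, 2.21 to 2.79) and Nceh1 at 39.5 and 207 (2.39, 1.94 to 2.88). In endothelial cells 2 of 24 measured genes were higher and 4 lower, beside 4.71% and 15.5% of all genes, and in fibroblasts 2 of 22 and 4, beside 4.49% and 14.4%. These counts were small and lay near the shares of all genes.

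The genes whose level most resembled that of each member over classes were ranked by Pearson's r of log2(CPM + 10) over 18 points, the 11 ND and 7 HFD classes with at least 20 cells, among 10791 genes with at least 200 UMIs. Points of 1 library share its depth and free RNA, so r is a description. Pltp came with Dab2 (r = 0.94), an endocytic adaptor, Soat1 with Cyba (0.92), a subunit of the phagocyte oxidase, and Abca1 with Blvrb (0.90), biliverdin reductase B. Mylip came with Sgms1 (0.90), sphingomyelin synthase, Nr1h3 with Sirt2 (0.90), Scarb1 with Taf13 (0.89), Npc2 with Lamtor1 (0.88), an anchor on the lysosome, Abcg1 with Amdhd2 (0.87) and Lpcat3 with Angptl4 (0.84), an inhibitor of lipoprotein lipase. Apoe came with Vamp3 (0.85), and Mylip, itself one of the 10, also stood near it (0.83).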

How the data were processed

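Droplet single-cell RNA sequencing gave 1 library of aortic arch cells for each diet. The authors deposited raw UMI counts per gene and barcode, made with Cell Ranger (3.0.1 in the file header). The submitters' processing notes also name bcl2fastq, UMI-tools, Seurat 3.2.0, R 4.0.0 and the build mm10. The deposited counts of both libraries joined were not used here. Positions came from GENCODE M21 on GRCm38 and promoters from RefSeq.

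Barcodes were filtered with the limits in the study's methods. A cell passed a class with UMIs of at least 2 of its markers and 3 marker UMIs in all. Macrophage took precedence over monocyte and dendritic and T over NK, and other cells went to the class with at least 4 times the marker UMIs of the next or were left as mixed (475 ND and 332 HFD cells). UMIs were summed per class and library and divided by all UMIs of those cells. Intervals are exact at 95% (Poisson, Clopper-Pearson, conditional binomial) and cover counting error only. A size of 1.5-fold was counted among genes with at least 50 UMIs. Scrublet (scanpy 1.11.5, expected rate 6%) scored doublets. By default it marked at most 1 cell, so the highest 6% of scores were left out as an alternative. Alternatives changed the mitochondrial limit, the gates, doublets, scaling, depth and sizes counted. Calculations used Python 3.11.15, numpy 2.4.6, scipy 1.17.1, pandas 2.3.3 and matplotlib 3.10.9, and the steps were tested on simulated data.

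The members and lists were chosen with earlier results of these data known. Beyond the members, values are given for the 3 pathway genes with the largest ratio in each direction in macrophages and for Nr1h2, Rxra, Lipa and Npc1, and for the genes most like each member. The values of 1 of these pathway genes are not reported here. The split of endothelial cells passing several lists, the split by Pi16, the equal weight of macrophage kinds and the values of barcodes above 30% were added after seeing the data.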

Additional observations from a re-analysis of the deposited data

Results flagged for a closer look

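Ratios of HFD to ND that pointed in opposite directions in a pair of cell classes, with both intervals clear of 0, were singled out. With 1 library per diet, none of these differences was tested. Abca1 was higher in HFD macrophages and lower in HFD endothelial cells, and the log2 ratios differed by 0.93. It was also higher in HFD fibroblasts, and the endothelial ratio minus the fibroblast ratio was -1.14. Apoe was lower in HFD endothelial cells and higher in HFD fibroblasts, with a difference of -1.04, from transcripts of a disrupted gene. Pltp was higher in macrophages and lower in endothelial cells, with a difference of 0.57. Npc2 was higher in macrophages and in fibroblasts and lower in endothelial cells, with differences of 0.94 (macrophage minus endothelial) and -0.59 (endothelial minus fibroblast).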

How the results depend on the processing

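Of 299 values of the 30 ratios under other settings, those added after seeing the data apart, 245 lay within the interval first given, 49 lay outside it in the same direction or without a called sign, and 5 had the opposite sign. At a mitochondrial limit of 10%, which left 51 HFD endothelial cells and 10 HFD fibroblasts, the log2 ratio was 0.36 for Abca1 and 0.12 for Npc2 in endothelial cells, and -0.027 for Abca1 and -0.55 for Apoe in fibroblasts. Scarb1 in fibroblasts was 0.012 without cells passing 2 classes and 1.74 in barcodes above 30% mitochondrial UMIs, from few UMIs. The cause was not tested.

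Genes at least 1.5-fold higher in fibroblasts numbered 1 at a limit of 20%, 0 at 10%, 1 after thinning and 0 at 2-fold in place of 3. Genes lower in fibroblasts numbered 0 without cells passing 2 classes and 0 after thinning in place of 1. At the 10% limit 1 gene was lower in macrophages and 1 higher in endothelial cells, in place of 0. After thinning to 1000 UMIs, which left fewer genes with 50 UMIs, 2 genes were higher in macrophages in place of 4 and 2 were lower in endothelial cells in place of 1, and at 2-fold 0 were lower there. Of the wider list, 2-fold left 3 lower in macrophages in place of 6, 0 higher and 1 lower in endothelial cells in place of 2 and 4, and 1 higher and 2 lower in fibroblasts in place of 2 and 4. Genes highest in macrophages in both libraries numbered 4, and 2 after thinning and 2 by the mean of cells, without Abcg1 and Npc2. Depth left 0 of the 10 genes comparable in mural cells. No paired analysis was possible because each diet had 1 library, and no replicate could be left out.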

Other observations

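Barcodes above 30% mitochondrial UMIs, left out by the filter, were gated in the same way and their levels given as CPM over non-mitochondrial UMIs, chosen after seeing the data. They held 106 ND and 467 HFD macrophages, in which Abca1 was 324 and 764 CPM (log2 ratio 1.23, 0.77 to 1.74), against 0.66 (0.55 to 0.78) on the same scale in kept cells. Abcg1 was 74.9 and 236 CPM (1.66, 0.70 to 2.81), Pltp 807 and 1482 (0.88, 0.58 to 1.19) and Soat1 49.9 and 101 (1.02, -0.17 to 2.51). In 784 and 3658 endothelial barcodes Scarb1 was 414 and 237 CPM (-0.80, -0.98 to -0.62), against -0.80 (-0.90 to -0.71) in kept cells, and Mylip 509.9 and 628 (0.30, 0.15 to 0.46). In 289 and 454 fibroblast barcodes Abca1 was 244 and 404 CPM (0.73, 0.25 to 1.24). The ratios of Abca1 in macrophages and fibroblasts, of Abcg1 in macrophages and of Scarb1 in endothelial cells thus had the same direction in barcodes that the filter had left out.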
